A study of Mus musculus with 18 samples.

Results

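Prostaglandins are lipid signals that cells make on demand from arachidonate in their membranes. Cytosolic phospholipase A2 (*Pla2g4a*) frees the arachidonate, the cyclooxygenases (*Ptgs1* and *Ptgs2*, also called COX-1 and COX-2) turn it into the common precursor prostaglandin H2, and a terminal synthase turns that into one of several end products. *Ptges* and *Ptges2* encode prostaglandin E synthases, *Ptgds* prostaglandin D synthase and *Ptgis* prostacyclin synthase, while *Hpgd* encodes the dehydrogenase that inactivates prostaglandins, and *Ptger2* and *Ptger4* encode receptors for prostaglandin E2 that raise cAMP. *Ptgs2* is the inducible cyclooxygenase, low in most resting cells and switched on by growth factors and inflammatory signals, whereas *Ptgs1* is expressed more steadily in many tissues. These 10 genes were followed in murine malignant peripheral nerve sheath tumor (MPNST) cell lines, where each was found by its gene name in a read-count table of 35275 genes. The genes were selected on values of these same counts, their difference between the genotypes being known, so that difference is given below as a description, with no test.

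The lines carried either *Nf1* and *p53* deletions (*Nf1/p53* dKO, called *p53*-deleted below) or *Nf1* and *Cdkn2a* deletions (*Nf1/Cdkn2a* dKO, called *Cdkn2a*-deleted below), so that loss of *Nf1* was common to both groups. Tumors had been started in the sciatic nerve of wild-type 129 Sv/Jae mice with an adenovirus carrying Cas9 under a CMV promoter and guides against the 2 genes, and each line was grown from 1 separate tumor with no further treatment. The age of the mice is not given in the sources used here. There were 3 lines per genotype and 3 cultures of each line, 18 RNA-seq libraries in all. The line was taken as the replicate (n = 3 per genotype), since its cultures come from the same tumor.

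Libraries held 19560535 to 28312207 counts. Levels are given in CPM, read counts scaled to the size of the library with TMM factors. *Trp53* mRNA was 3.08-fold lower in the *p53*-deleted lines (58.6 to 94.1 CPM) than in the *Cdkn2a*-deleted lines (185 to 247 CPM), a difference of 1.62 ± 0.23 on the log2 scale (SE; edgeR adjusted p = 0.0361, 0.0436 without *p53*-deleted line 1 and 0.0671 to 0.124 without any other line). *Cdkn2a* mRNA (169 to 391 CPM in the *Cdkn2a*-deleted lines, 42.9 to 363 in the others) and *Nf1* mRNA (12.7 to 38.2 and 27.7 to 69.9) overlapped between the groups, and mRNA levels do not read the edits themselves. All 8 mesenchymal markers were detected, with *Vim* at 4725 to 10202 CPM, and the labels call the cells mesenchymal. The Schwann cell marker *Sox10* was under 1 CPM in every line.

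*Ptgs2* reached the highest level of the 10 genes and was higher in every *Cdkn2a*-deleted line. In *p53*-deleted line 1 its cultures read 190, 204 and 186 CPM, in line 2 they read 196, 195 and 189.7 CPM, and in line 3 they read 24.0, 21.5 and 27.6 CPM. In *Cdkn2a*-deleted line 1 they read 2238, 1867 and 1949.9 CPM, in line 2 they read 3336, 3417 and 3085 CPM, and in line 3 they read 1554, 1496 and 1618 CPM. Every *Cdkn2a*-deleted culture was thus above every *p53*-deleted culture, and *p53*-deleted line 3 lay far below the other lines. The line means were 137 ± 97.6 CPM (SD, n = 3) and 2294 ± 899.7 CPM (SD, n = 3), a difference of 4.06 ± 0.81 (SE) on the log2 scale or 16.7-fold. Over the 6 fits that each lack 1 line, the log2 difference was 3.57 to 4.41, and it was 3.57 without *p53*-deleted line 3. In the *Cdkn2a*-deleted lines 1, 2 and 3 this single gene took 0.193%, 0.319% and 0.147% of all counts, against 0.0205%, 0.0197% and 0.00258% in the *p53*-deleted lines.

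*Ptgs1*, the other cyclooxygenase, followed the same order of genotypes over a narrower range. The cultures of *p53*-deleted line 1 read 147, 153 and 169.6 CPM, those of line 2 read 68.4, 70.2 and 62.7 CPM, and those of line 3 read 61.4, 55.6 and 61.2 CPM. In the *Cdkn2a*-deleted lines the cultures of line 1 read 480.5, 475 and 500.3 CPM, those of line 2 read 576, 601 and 598 CPM, and those of line 3 read 682, 677 and 624 CPM. No culture of one genotype reached the range of the other. The line means were 94.0 ± 53.5 and 581 ± 88.9 CPM (SD, n = 3 each), a log2 difference of 2.63 ± 0.41 (SE), which became 3.20 without *p53*-deleted line 1, the *p53*-deleted line with the most *Ptgs1*. An annotated gene on the opposite strand overlaps an exon of *Ptgs1*, and whether the counting used strand is not given in the sources used here.

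*Pla2g4a*, which acts upstream of both cyclooxygenases, read 71.6 to 81.6 CPM in the cultures of *p53*-deleted line 1, 72.8 to 77.6 CPM in those of line 2 and 10.9 to 11.8 CPM in those of line 3. In the *Cdkn2a*-deleted cultures it read 234 to 255 CPM in line 1, 218 to 238 CPM in line 2 and 281 to 283 CPM in line 3. As for *Ptgs2*, the genotypes did not overlap and *p53*-deleted line 3 stood lowest. The line means were 54.6 ± 37.4 and 252 ± 29.0 CPM (SD, n = 3 each), a log2 difference of 2.21 ± 0.66 (SE) that was 1.73 without *p53*-deleted line 3.

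**Figure D1:**
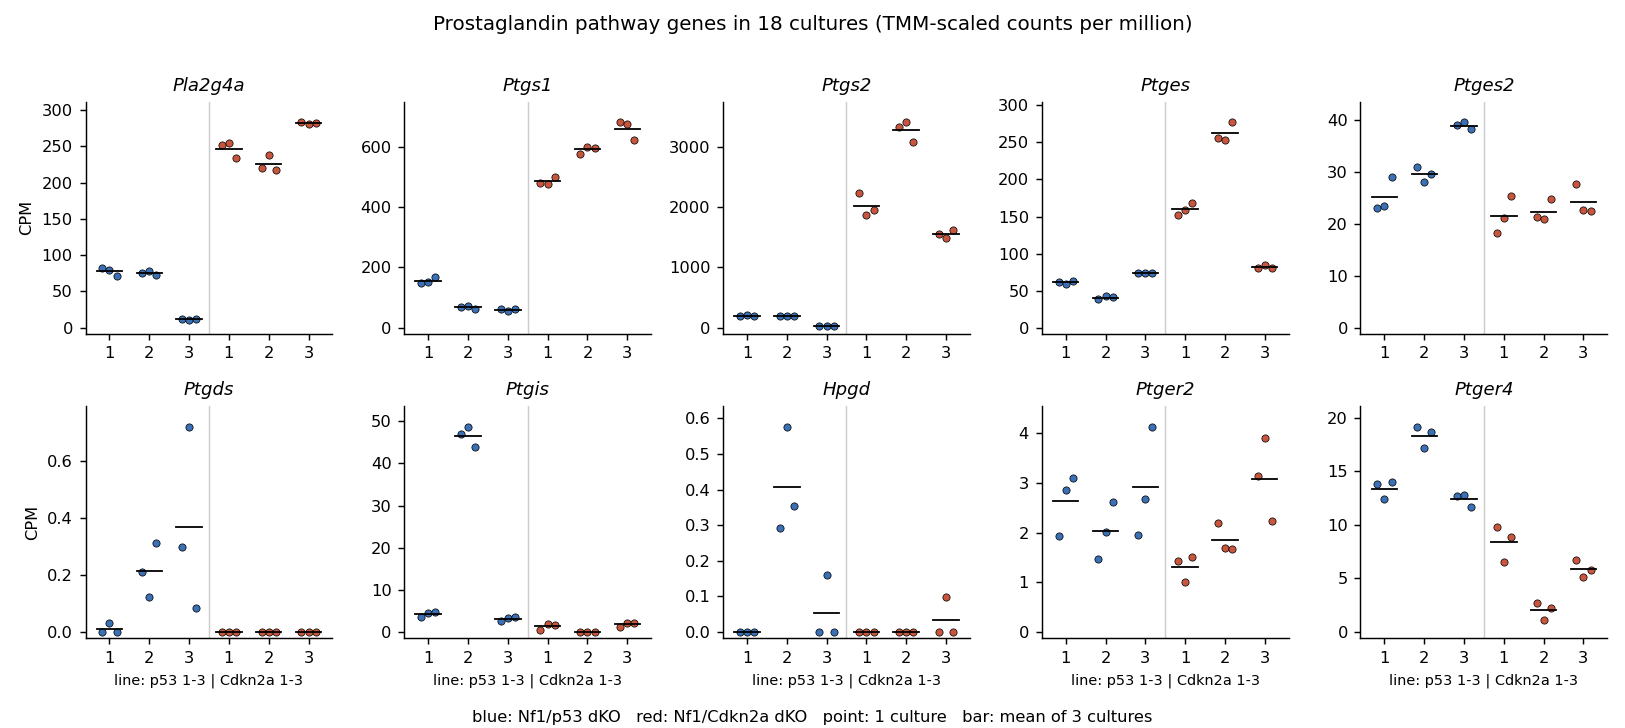
Level of each of the 10 genes (vertical axis, TMM-scaled CPM, each panel from 0 on its own scale) in the 18 cultures, with the lines of each genotype along the horizontal axis, a point for each culture and a bar for the mean of the 3 cultures of a line. *Pla2g4a*, *Ptgs1*, *Ptgs2* and *Ptges* are higher in every *Cdkn2a*-deleted line, *Ptgs2* reaching 3417 CPM, while *Ptgis* stands out in *p53*-deleted line 2 at 44.0 to 48.8 CPM.

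The 3 genes at the head of the pathway are shown here by the 250 bases before their annotated starts, as the stretches in which motifs of the factors known to switch on *Ptgs2* were searched. Sequences are RefSeq's for GRCm38.p6, the reference mouse strain and not the 129 background of the lines, written 5′ to 3′ on the gene's strand: *Ptgs2* at chr1:150099781-150100030 (plus strand), *Ptgs1* at chr2:36230176-36230425 (plus strand) and *Pla2g4a* at chr1:149961291-149961540 (minus strand). Capitals mark any match, on either strand, to 6 motifs searched: NF-kB (GGGNNNNNCC), C/EBP (TTGCNNAA), the CRE half-site (TGACG), the E-box (CACGTG), AP-1 (TGANTCA) and the TATA box (TATAAA).
Ptgs2: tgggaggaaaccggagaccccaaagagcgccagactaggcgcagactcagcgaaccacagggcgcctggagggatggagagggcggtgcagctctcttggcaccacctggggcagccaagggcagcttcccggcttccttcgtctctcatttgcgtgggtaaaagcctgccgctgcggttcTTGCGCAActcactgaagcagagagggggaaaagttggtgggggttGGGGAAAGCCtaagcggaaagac
Ptgs1: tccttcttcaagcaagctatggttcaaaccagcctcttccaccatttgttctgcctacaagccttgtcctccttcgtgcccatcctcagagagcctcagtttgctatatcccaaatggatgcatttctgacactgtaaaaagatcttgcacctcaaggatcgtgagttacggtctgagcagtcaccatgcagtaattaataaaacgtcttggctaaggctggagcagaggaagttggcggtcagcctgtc
Pla2g4a: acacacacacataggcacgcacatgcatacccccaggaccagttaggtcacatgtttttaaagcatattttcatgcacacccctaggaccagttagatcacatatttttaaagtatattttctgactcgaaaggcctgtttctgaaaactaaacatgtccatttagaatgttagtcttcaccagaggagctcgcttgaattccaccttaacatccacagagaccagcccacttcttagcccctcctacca
The *Ptgs2* stretch held a C/EBP match beginning 69 bases before the start and an NF-kB match beginning 23 bases before it, and neither of the other stretches held any of the 6. Just after the annotated *Ptgs2* start, at chr1:150100034-150100059, a CRE half-site in reverse orientation and an E-box overlapped, as the capitals show.
Ptgs2 after the start: gtcaccactaCGTCACGTGgagtccg
Windows of 300 bases, with 50 bases after the start, were found for 9 of the 10 genes (10 windows, since *Pla2g4a* has 2 starts). *Ptgs2* was the only member whose window held a CRE half-site, found in 20.8% of all 32851 such windows. The C/EBP letters stood in the windows of *Ptgs2* and *Ptger2* (10.8% of all), the E-box in those of *Ptgs2* and *Ptges2* (7.15% of all) and the AP-1 letters in that of *Ptgds* (7.81% of all). The NF-kB letters stood in 5 of the 10 windows and in 50.8% of all, and the TATA letters in those of *Hpgd* and *Pla2g4a* (13.6% of all). A match is a description of the letters and no evidence of binding.

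Among the terminal synthases of the 10 genes, *Ptges*, the inducible prostaglandin E synthase that is often expressed together with *Ptgs2*, was the one with more mRNA in the *Cdkn2a*-deleted lines. Its cultures read 58.8 to 62.6, 38.2 to 42.2 and 73.1 to 73.7 CPM in *p53*-deleted lines 1, 2 and 3. In *Cdkn2a*-deleted lines 1, 2 and 3 they read 152 to 169, 253 to 277 and 80.6 to 84.4 CPM. The genotypes did not overlap, although the lowest *Cdkn2a*-deleted line and the highest *p53*-deleted line, line 3 in both, were close (82.2 and 73.4 CPM). The log2 difference was 1.53 ± 0.44 (SE) and ranged from 1.07 to 1.87 with 1 line left out.

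The other synthases of the 10 genes went the other way or were scarce. *Ptges2*, a constitutive prostaglandin E synthase, had 24.9, 29.5 and 38.8 CPM in the *p53*-deleted lines and 21.7, 22.2 and 24.4 CPM in the *Cdkn2a*-deleted lines, a log2 difference of -0.45 ± 0.20 (SE), and the culture ranges of the genotypes overlapped. *Ptgis* had 4.26, 46.6 and 3.14 CPM in the *p53*-deleted lines against 1.38, 0 and 1.80 CPM in the *Cdkn2a*-deleted lines, so a single line made most of the difference. Its log2 difference was -4.09 ± 1.71 (SE) and -1.79 without *p53*-deleted line 2. All 3 cultures of *Cdkn2a*-deleted line 2 had 0 *Ptgis* counts, and *Ptgis* shares an exon with a gene on the opposite strand.

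*Ptgds* and *Hpgd* did not pass the filter on low counts. *Ptgds* had 43 counts over the 9 *p53*-deleted cultures, 18 of them in 1 culture, and 0 over the 9 *Cdkn2a*-deleted cultures. Against the 3 counts that a count of 0 allows over the group, its level pooled over the lines was at least 12.7-fold lower in the *Cdkn2a*-deleted lines, counting error only. The fold does not hold for *p53*-deleted line 1, whose 0.0129 CPM lay below the 0.0153 CPM that the 0 counts allow. *Hpgd* had 33 counts in 4 of the *p53*-deleted cultures and 2 counts in the *Cdkn2a*-deleted cultures, and no fold is given. *Hpgd* mRNA was thus at very low counts in all 6 lines.

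The receptor genes were expressed at low levels. *Ptger4* read 13.3, 18.3 and 12.4 CPM in the *p53*-deleted lines and 8.50, 2.06 and 5.93 CPM in the *Cdkn2a*-deleted lines, with no overlap between the 9 cultures of each genotype (11.7 to 19.2 and 1.16 to 9.85 CPM). Its log2 difference was -1.42 ± 0.51 (SE). *Ptger2* read 2.65, 2.02 and 2.92 CPM against 1.33, 1.87 and 3.08 CPM, and the lines of the genotypes overlapped (log2 difference -0.27 ± 0.41, SE). Exons of both receptor genes overlap genes on the opposite strand, *Ttc33* in the case of *Ptger4*, so part of these low counts could belong to the partner.

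All lines of one genotype were above those of the other for 7 of the 8 members that passed the filter, 4 that were higher (*Pla2g4a*, *Ptgs1*, *Ptgs2* and *Ptges*) and 3 that were lower (*Ptges2*, *Ptgis* and *Ptger4*) in the *Cdkn2a*-deleted lines. Over all 15207 genes tested, 14.8% were higher and 16.6% lower in this sense. Since the members were chosen with this contrast known, nothing is read from these counts.

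Set against each other per length (RPKM, CPM divided by the exon length in kilobases), the members formed a ladder that differed between the genotypes. In the *Cdkn2a*-deleted lines *Ptgs2* (501 ± 196 RPKM, SD, n = 3) stood above *Ptgs1* (149.6 ± 22.9), with no overlap between lines, and *Ptgs1* above *Ptges* (42.8 ± 22.9) and *Pla2g4a* (39.4 ± 4.54), which overlapped each other. *Ptges2* followed at 4.50 ± 0.28 RPKM, apart from its neighbors on both sides, and *Ptger4* (0.83 ± 0.49), *Ptgis* (0.41 ± 0.37) and *Ptger2* (0.40 ± 0.17) overlapped. In the *p53*-deleted lines *Ptgs2* (29.9 ± 21.3 RPKM), *Ptgs1* (24.2 ± 13.8), *Ptges* (14.8 ± 4.24), *Pla2g4a* (8.54 ± 5.86), *Ptgis* (7.01 ± 9.65) and *Ptges2* (6.14 ± 1.41) each overlapped the next in that order. *Ptger4* (2.20 ± 0.48) lay below *Ptges2* and overlapped *Ptgis* and *Pla2g4a*. *Ptger2* (0.49 ± 0.089) and then *Ptgds* (0.12 ± 0.11) came below all of these without overlap, and *Ptgds* overlapped *Hpgd* (0.092 ± 0.13).

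The balance of the cyclooxygenases also differed among the lines. The ratio of *Ptgs2* to *Ptgs1* per length was 1.05, 2.45 and 0.347 in *p53*-deleted lines 1, 2 and 3, and 3.52, 4.72 and 2.00 in *Cdkn2a*-deleted lines 1, 2 and 3. The ranges of this ratio overlapped, and *Ptgs1* was the more abundant of the pair in *p53*-deleted line 3. The sum of both was 82.3, 59.5 and 20.6 RPKM in the *p53*-deleted lines and 567, 873 and 512 RPKM in the *Cdkn2a*-deleted lines. Among the 34490 genes with a length, *Ptgs2* ranked at positions 83, 40 and 117 in *Cdkn2a*-deleted lines 1, 2 and 3, and at 1106, 1157 and 6543 in the *p53*-deleted lines.

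**Figure D2:**
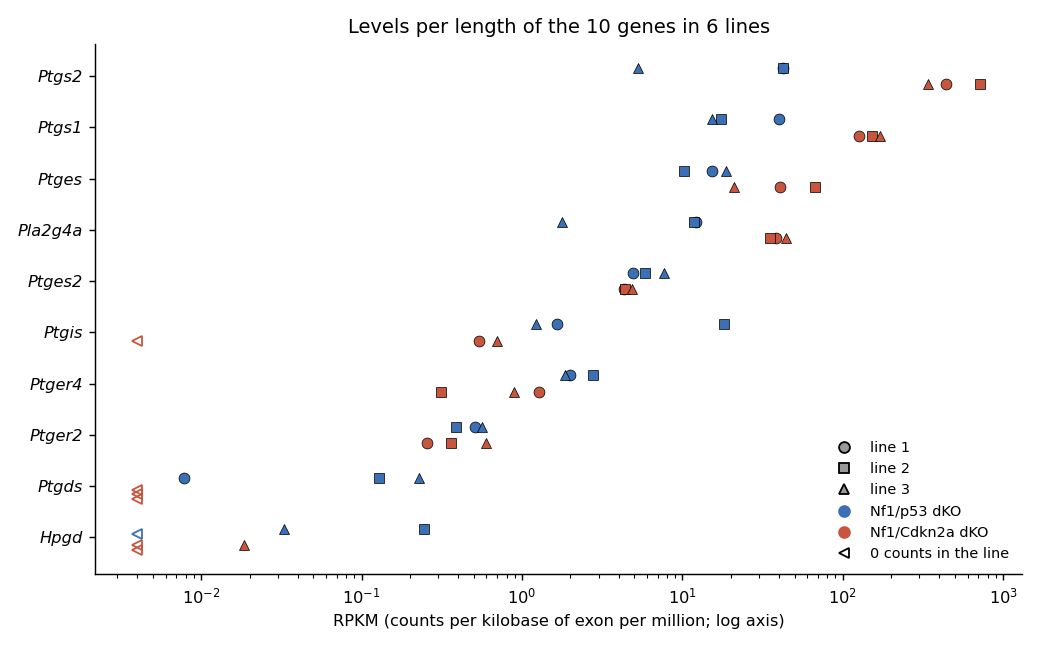
Level per length of the 10 genes (horizontal log axis, RPKM) in the 6 lines, ordered by the mean over lines, with colors for the genotypes and symbols for the lines; open triangles at the left edge mark lines with 0 counts. *Ptgs2* runs from 5.31 RPKM in *p53*-deleted line 3 to 720.2 RPKM in *Cdkn2a*-deleted line 2.

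Whether lines of a single genotype differed was asked separately, in the 9 cultures of each genotype, with a comparison that the choice of genes did not use. The p-values of this edgeR F test measure the spread between cultures of a line only. Among the *p53*-deleted lines 7 of the 8 members tested differed, and so did 79.7% of all 14199 genes tested. *Ptgs2* differed 7.96-fold between the highest and the lowest line (adjusted p = 8.36e-24), *Pla2g4a* 6.79-fold (adjusted p = 5.77e-22), *Ptgis* 14.8-fold (adjusted p = 6.74e-22) and *Ptgs1* 2.62-fold (adjusted p = 8.49e-18) in edgeR's test. *Ptger2* was the member that did not pass (1.44-fold, edgeR adjusted p = 0.245).

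Among the *Cdkn2a*-deleted lines 7 of the 8 differed, against 54.2% of all 13387 genes tested. The highest and lowest lines differed 2.11-fold for *Ptgs2* (edgeR adjusted p = 4.45e-09), 1.36-fold for *Ptgs1* (8.23e-05) and 1.25-fold for *Pla2g4a* (0.0025), all narrower than among the *p53*-deleted lines. *Ptges* spread over 3.19-fold (edgeR adjusted p = 1.21e-11), *Ptger4* over 4.12-fold (1.67e-05) and *Ptger2* over 2.31-fold (0.0125), all wider than among the *p53*-deleted lines, and these differences in spread were not tested. *Ptges2*, with 1.12-fold between the extremes, did not pass (edgeR adjusted p = 0.58). Without culture 2 of each line 6 of the 8 passed. *Ptgs2* and *Ptges* were highest in line 2 of this genotype, and *Ptgs1* and *Pla2g4a* in line 3. In the *p53*-deleted lines *Ptgs2* and *Pla2g4a* were both at their lowest in line 3, where *Ptges* was at its highest, and lines 1 and 2 could not be told apart for either, their culture ranges overlapping.

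*Ptgs2* and *Pla2g4a* are neighbors on chromosome 1, pointing away from each other with 138740 bases between them. *Pla2g4a* lies at chr1:149829618-149961290 on the minus strand and *Ptgs2* at chr1:150100031-150108227 on the plus strand (GRCm38, GENCODE M21), and 5 other members are on chromosome 2. *Ptgs2os*, a non-coding transcript that starts 68 bases from *Ptgs2* on the opposite strand without overlapping it, had 1.49, 2.80 and 0.53 CPM in the *p53*-deleted lines and 12.6, 10.9 and 5.83 CPM in the *Cdkn2a*-deleted lines. It was lowest in *p53*-deleted line 3, and its log2 difference of 2.60 ± 0.65 (SE) did not pass the test (edgeR adjusted p = 0.0894). *Tpr*, a nuclear pore gene further along the chromosome, had 285, 299 and 171 CPM and 346, 299 and 279 CPM, again with *p53*-deleted line 3 lowest. The genes of this neighborhood gave 0 calls among the 7 tested in edgeR's quasi-likelihood test, with 2 at an unadjusted p under 0.05 (22.4% of all genes tested) and 2 called by DESeq2 on the same lines (14.4% of all genes it tested).

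The median level of chromosome 1 genes was low in line 3 of the *p53*-deleted genotype, an observation made after its values were seen. The median of its 901 tested genes on this chromosome lay 0.54 below the median of the 6 lines on the log2 scale (-0.54), the lowest of 120 medians over lines and chromosomes, while in the other lines the chromosome 1 median was 0.0077 to 0.059. Of these 901 genes, 65.9% had their lowest level in this line, against 25.5% of all genes tested, and among genes that start within 1 Mb of *Ptgs2* it was 8 of 9, or 6 of 7 without *Ptgs2* and *Pla2g4a* themselves. Against the mean of *p53*-deleted lines 1 and 2, the median log2 ratio of this line was -0.67 over chromosome 1 and -1.37 over those 7 genes. In wider windows the values were nearer those of the whole chromosome. Within 5 Mb of *Ptgs2*, 28 of 41 genes (68.3%) were lowest in this line, with a median log2 ratio of -0.88. Within 10 Mb it was 51 of 75 genes (68%), with a median of -0.81. For chromosome 2, with 5 members, the line's median was 0.047. DNA copy number was not measured here, and the part of this shift in the *Ptgs2* and *Pla2g4a* values of that line was not tested. Without that line the *Ptgs2* difference was 3.57 on the log2 scale.

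**Figure D3:**
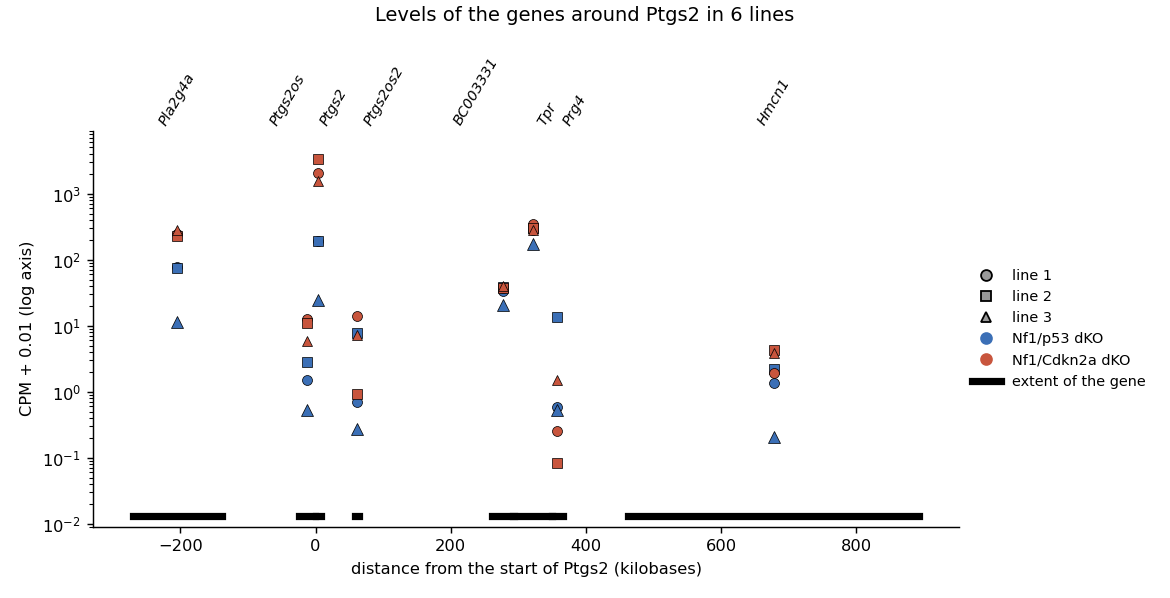
CPM plus 0.01 (vertical log axis) of *Ptgs2* and the genes around it in the 6 lines, placed by the middle of each gene as distance from the *Ptgs2* start in kilobases, with black bars for the extent of each gene. *p53*-deleted line 3 (blue triangles) is the lowest line for 7 of the 8 genes drawn, all but *Prg4*, with *Ptgs2* at 24.3 CPM.

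Across the 18 cultures, the genes whose log2 CPM followed that of *Ptgs2* most closely included *Ereg*, *Lrrc8c*, *Rhou* and *Asph* (Pearson r = 0.99 for each), out of 15206 genes compared. The cultures share lines and genotypes, so the effective number of points is nearer the 6 lines than 18. *Ereg* encodes epiregulin, a ligand of the EGF receptor family. It had 125, 132 and 42.4 CPM in the *p53*-deleted lines and 465.7, 476 and 311 CPM in the *Cdkn2a*-deleted lines, so its lowest lines in each genotype were those of *Ptgs2*. Among the members the correlation with *Ptgs2* was 0.96 for *Pla2g4a*, 0.93 for *Ptgs1* and 0.70 for *Ptges*, and it was -0.86 for *Ptges2*, -0.72 for *Ptger4*, -0.61 for *Ptgis* and -0.40 for *Ptger2*. Both genotypes enter these correlations, so they carry the genotype difference that the members were chosen with. They are a description and not separate evidence of joint expression.

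Other genes of the pathway were taken from lists of 124 genes in 10 roles, of which 99 passed the filter. In edgeR's quasi-likelihood test with adjustment over all 15207 genes, 1 rose and 2 fell in the *Cdkn2a*-deleted lines, and the other 96 did not pass. Over all genes tested, 0.638% were called higher and 1.16% lower. The median log2 difference of the 99 was 0.14, beside -0.02 for all genes tested, and the lines did not overlap for 20 that were higher and 13 that were lower, where 14.8% and 16.6% of all genes tested were.

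*Ephx2*, the soluble epoxide hydrolase that acts on epoxides of arachidonate, rose 12.8-fold. Its lines had 0.71, 0.61 and 1.16 CPM in the *p53*-deleted group and 8.58, 6.23 and 16.9 CPM in the *Cdkn2a*-deleted group, a log2 difference of 3.67 ± 0.51 (SE, edgeR adjusted p = 0.0361). *Egfr*, the EGF receptor, through which ligands such as epiregulin can induce *Ptgs2*, fell by 1.61 ± 0.24 (SE) on the log2 scale, from 50.8, 75.8 and 42.4 CPM to 17.4, 17.5 and 20.4 CPM (edgeR adjusted p = 0.0407). *Pde10a*, a phosphodiesterase that breaks down cAMP and cGMP, fell by 2.11 ± 0.30 (SE), from 19.9, 17.5 and 28.9 CPM to 4.70, 6.57 and 4.11 CPM (edgeR adjusted p = 0.0388). With 1 line left out at a time the adjusted p was 0.0578 to 0.119 for *Ephx2*, 0.043 to 0.143 for *Egfr* and 0.0618 to 0.142 for *Pde10a*, so that of these 18 tests only that for *Egfr* without *p53*-deleted line 3 stayed under 0.05. The log2 differences stayed at 3.17 to 4.00, -1.78 to -1.32 and -2.32 to -1.86 in these fits.

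These 3 genes belong to the lipoxygenase, ligand and cAMP lists. In the other 7 roles, the *Ptgs2* neighborhood included, 0 of 66 genes passed edgeR's quasi-likelihood test, while 15 had an unadjusted p under 0.05 (22.4% of all genes tested), DESeq2 on the same lines called 7 (14.4% of all genes it tested) and limma-voom, given the line as a random term, called 12 (16.6% of all genes it tested). Without *p53*-deleted line 1, edgeR called 3 of the 66, *Pla2g7* (log2 difference 2.77, adjusted p = 0.0466), *Akr1c18* (5.91, adjusted p = 0.0445) and *Ptgfr* (3.54, adjusted p = 0.0323), and it called none without any other line. In the fit, 15 genes were listed under arachidonate release and recycling, whether or not each is known to release arachidonate. Of these, 6 were higher and 9 lower (median log2 difference -0.45), from *Pla2g7* (1.04 ± 0.85, SE) to *Mgll* (-3.58 ± 1.93). *Acsl4*, the most abundant of them per length, differed by 0.16 ± 0.22. *Pla2g7* had 140, 21.6 and 13.8 CPM in the *p53*-deleted lines and 138, 142 and 81.8 CPM in the others. *Mgll* had 1.73, 63.2 and 1.40 CPM against 0.63, 0.087 and 4.85 CPM, so its direction rested on *p53*-deleted line 2, without which the difference was 0.26. Of 6 terminal prostanoid synthases, *Akr1c18*, whose product can make prostaglandin F and is best known for breaking down progesterone, had 63.4, 5.64 and 4.62 CPM in the *p53*-deleted lines and 217, 534 and 173 CPM in the *Cdkn2a*-deleted lines (log2 difference 3.65 ± 1.16, SE, edgeR adjusted p = 0.137). *Fam213b* was the lowest of them at -3.48 ± 1.57, and was under 5 CPM in every line.

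For transport and breakdown, the carrier *Slco2a1*, which takes prostaglandins into cells, had 71.8, 281 and 22.8 CPM in the *p53*-deleted lines and 39.7, 2.84 and 23.4 CPM in the *Cdkn2a*-deleted lines (log2 difference -2.51 ± 1.16, SE), with overlapping lines. The exporter *Abcc4* (0.42 ± 0.42) and *Zadh2* (0.24 ± 0.21) overlapped too. The list of prostanoid receptors and their partners, without *Ptger2* and *Ptger4*, had 5 genes in the fit. Of these *Ptgfr*, the prostaglandin F receptor, had 84.9, 11.1 and 9.75 CPM against 98.3, 104 and 162 CPM (log2 difference 1.79 ± 0.86, SE). *Ptgir*, the prostacyclin receptor, differed by -0.84 ± 0.45 and *Ptgfrn*, which binds the prostaglandin F receptor, by -0.48 ± 0.39. In the lipoxygenase branch *Alox5* was at 0.19 to 2.99 CPM in the *p53*-deleted lines and at 0.0144 to 0.0625 CPM in the others (log2 difference -4.92 ± 1.19, SE), and *Lta4h* differed by 0.59 ± 0.19.

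Genes that act on *Ptgs2* itself were mixed. Of 16 transcription factors, 8 were higher and 8 lower (median log2 difference 0.03), and the C/EBP family held both extremes. *Cebpd* had 15.6, 12.0 and 5.05 CPM in the *p53*-deleted lines and 40.4, 96.1 and 116 CPM in the *Cdkn2a*-deleted lines (2.95 ± 0.55, SE, edgeR adjusted p = 0.0528), and *Cebpa* had 9.70, 15.3 and 48.0 CPM against 4.84, 1.25 and 2.13 CPM (-3.15 ± 0.78, edgeR adjusted p = 0.0891). *Rela*, the most abundant of them per length, differed by 0.25 ± 0.17. Among 10 RNA-binding proteins the range was from *Khsrp* (-0.46 ± 0.16) to *Zfp36l1* (1.17 ± 0.31), and *Zfp36l2*, the most abundant, differed by -0.24 ± 0.15.

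Of 10 ligands and receptors in the fit, 7 were higher and 3 lower, with a median log2 difference of 0.79. For comparison, 7332 of all 15207 genes tested were higher and 7875 lower. *Ereg* differed by 2.07 ± 0.45 (SE, edgeR adjusted p = 0.0681) and *Tgfa*, another EGF receptor ligand but under 1.3 CPM in every line, by 2.80 ± 0.69 (edgeR adjusted p = 0.0883). Of 17 genes on the cAMP list, named for the second messenger of the prostaglandin E2 receptors, 13 were higher and 4 lower (median 0.74). The lowest was *Pde10a*, at -2.11 ± 0.30 (SE). Among the higher was *Dusp1*, a phosphatase of MAP kinases, with 67.1, 64.5 and 46.0 CPM against 122, 139 and 271 CPM (1.58 ± 0.34, SE, edgeR adjusted p = 0.0681). *Nr4a3*, a nuclear receptor, differed by 3.40 ± 1.16, with 40.7 CPM in *Cdkn2a*-deleted line 3 and 0.55 to 4.38 CPM in the other lines.

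**Figure D4:**
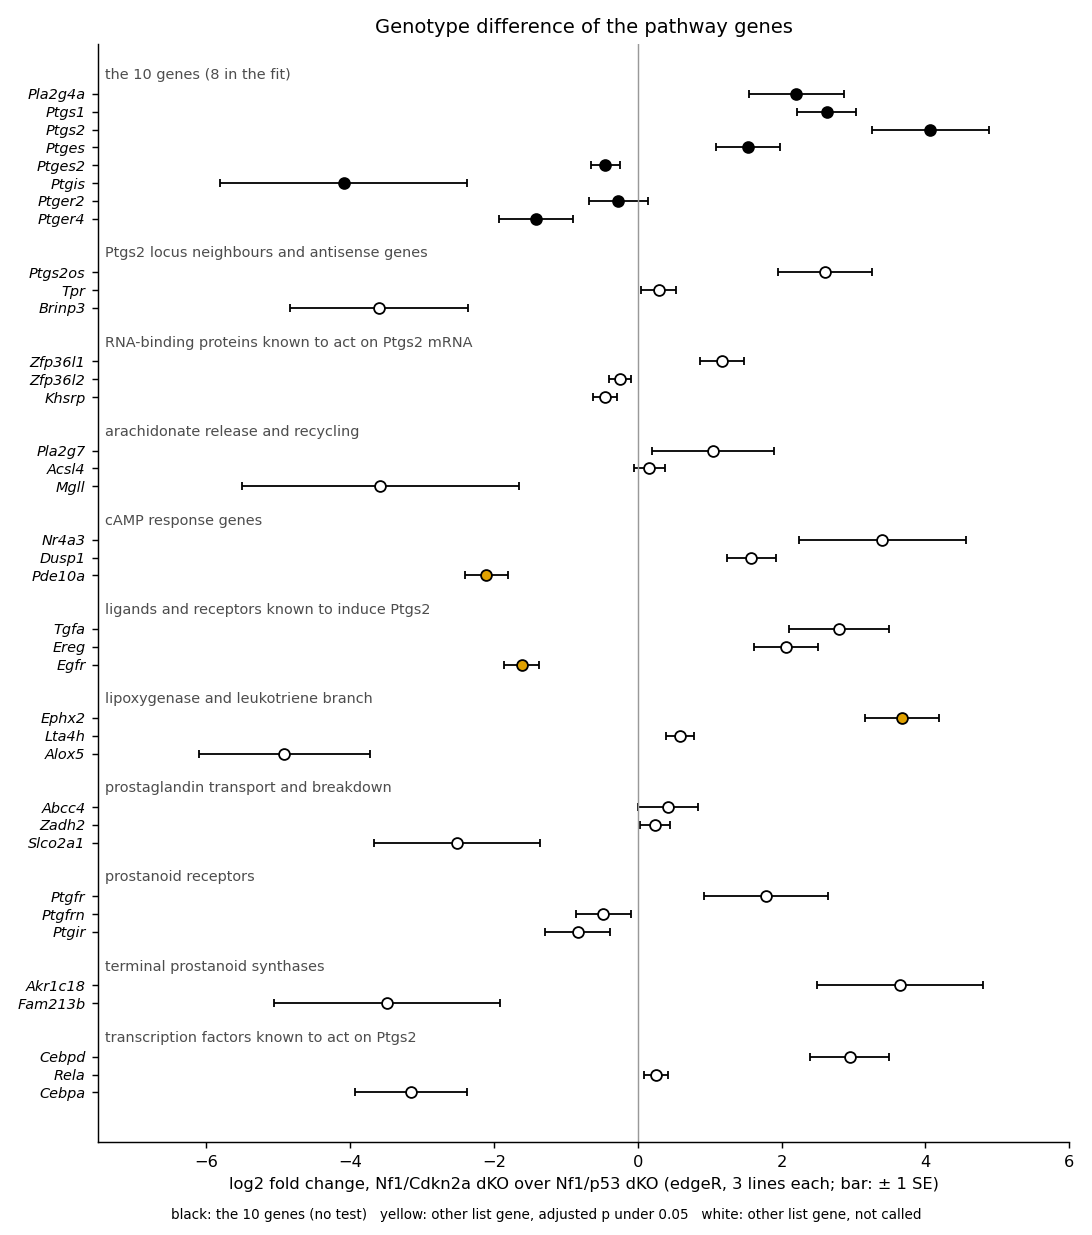
Log2 fold change of *Cdkn2a*-deleted over *p53*-deleted lines (horizontal axis, edgeR, 3 lines each, bars ± 1 SE) for the 8 members in the fit (black) and the named genes of the other lists by role (yellow where the adjusted p is under 0.05, white otherwise). *Ephx2* lies at 3.67 and *Egfr* and *Pde10a* at -1.61 and -2.11, while *Ptgs2* lies at 4.06 and *Ptgis* at -4.09.

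**Figure D5:**
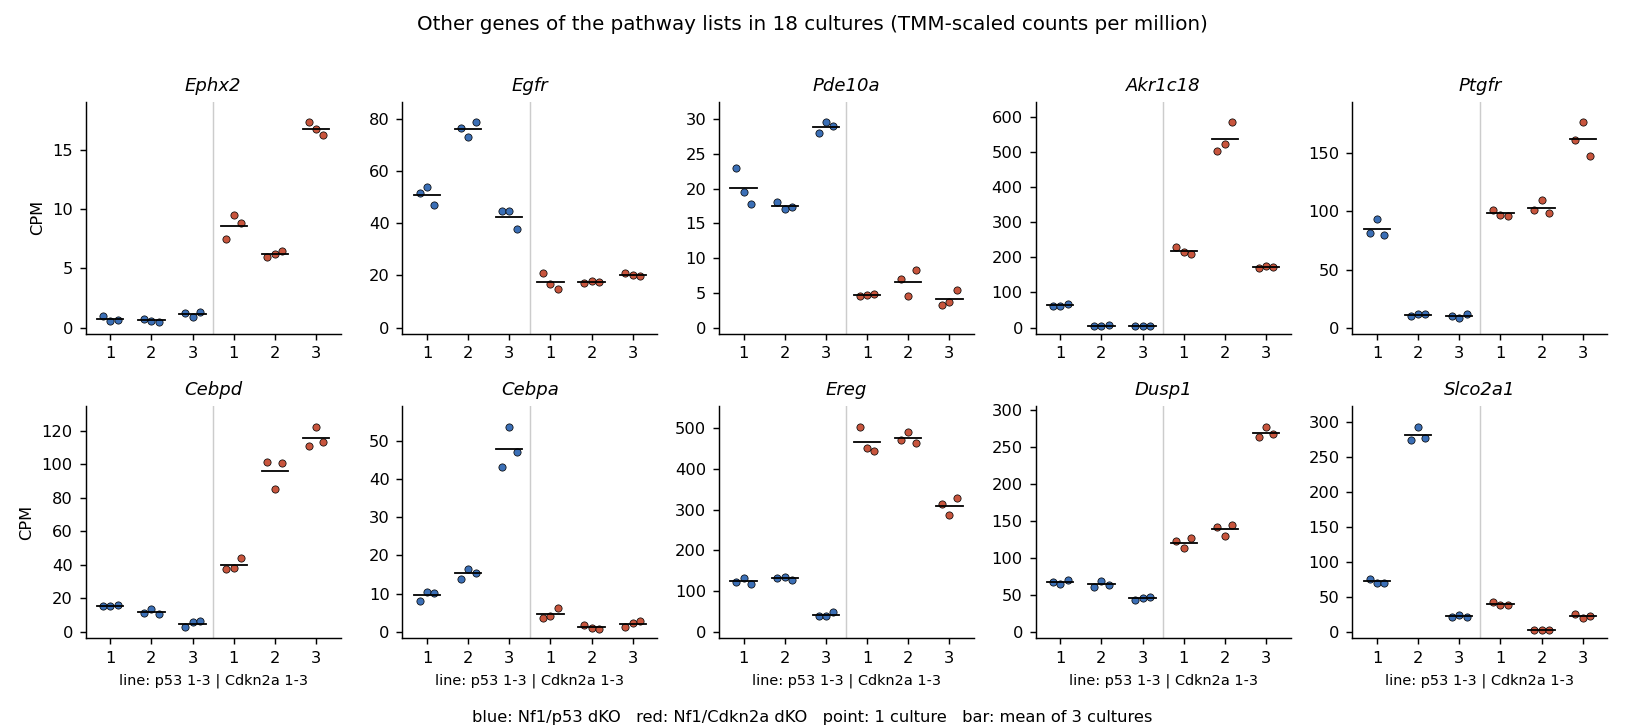
Level of 10 other genes of the lists (vertical axis, TMM-scaled CPM, each panel from 0 on its own scale) in the 18 cultures, with lines on the horizontal axis, a point for each culture and a bar for the mean of a line. *Ephx2* and *Egfr* keep the genotypes apart, whereas *Ptgfr* at 79.3 to 93.3 CPM in *p53*-deleted line 1 nears the lowest *Cdkn2a*-deleted culture at 96.4 CPM.

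Markers of other cell types differed in level among the lines. The summed level of 10 macrophage and leukocyte markers was 14.3 to 26.5 CPM in the *p53*-deleted lines and 32.9 to 47.2 CPM in the *Cdkn2a*-deleted lines, with 6 of the 10, *Ptprc* among them, under 1 CPM in every line. The sum of 7 endothelial markers was 1.97 to 2.93 CPM and 8.46 to 25.9 CPM, carried by *Esam* (0.11 to 0.42 and 6.34 to 24.6 CPM), with *Pecam1*, *Kdr*, *Vwf* and *Cldn5* under 1 CPM throughout. All 7 mast cell markers were under 1 CPM, *Hdc*, the highest, at 0.0156 to 0.31 CPM. The sum of 6 epithelial markers ranged from 2.67 to 739 CPM and from 8.26 to 611 CPM, with *Krt8* at 21.6, 539.6 and 0.48 CPM in *p53*-deleted lines 1, 2 and 3 and at 601, 10.9 and 0.95 CPM in the *Cdkn2a*-deleted lines. The sum of 8 Schwann cell markers was 3.57 to 74.8 CPM and 1.48 to 3.05 CPM, with *Ngfr* at 64.3 CPM in *p53*-deleted line 2, the line with the most *Ptgis*. The part of these markers in the values above was not tested.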

How the data were processed

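RNA-seq counts from 18 libraries were used. The authors deposited raw, unnormalized counts, the reads assigned to each gene in each library, as a single table. The submitters' processing notes name CASAVA, STAR 2.5, DESeq2 1.14.1 and the builds GRCm38 and mm10, and the counting tool, its annotation and its strand setting are not given in the sources used here. Of 35275 genes, 34490 had an identifier in GENCODE M21 (GRCm38), from which positions and exon lengths were taken, and no genome sequence was used beyond RefSeq's promoter table.

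Groups, lines and cultures were taken from the sample labels. The 3 cultures of each line were added up. Genes passed filterByExpr of edgeR at a count of 10 or more and a total of 15 or more, library sizes took TMM factors, and the genotypes were compared by the quasi-likelihood test of edgeR, with p-values adjusted after Benjamini and Hochberg and called under 0.05. R 4.3.3 was used with edgeR 4.0.16, DESeq2 1.42.0 and limma 3.58.1. Differences among the lines of a genotype were tested with the same tool's F test on 9 cultures. Cultures of a line differed beyond counting noise (chi-square per degree of freedom 3.57 to 29.2), so none was a copy. CPM used TMM-scaled library sizes, and RPKM divided CPM by the exon length. A count of 0 was taken to allow up to 3 counts, and these bounds hold for counting error alone, as no molecular identifiers are described. Total counts were 19560535 to 28312207 per library (median 23149777) and 65206479 to 73065228 per line. The fits were also run on simulated counts, with changes set only in genes at higher counts and a common spread for all genes. That run does not cover genes at low counts. Python 3.11.15, numpy 2.4.6, pandas 2.3.3 and matplotlib 3.10.9 made the summaries and plots.

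The members and the gene lists were chosen with earlier results of these data known. Named genes were the 10 members, the list genes called between the genotypes, the highest, the lowest and the most abundant of each role, the 5 genes most like *Ptgs2*, the targeted genes and the most abundant marker of each cell type. Other names (*Ttc33*, *Prg4*, *Ptprc*, *Pecam1*, *Kdr*, *Vwf*, *Cldn5*, *Sox10*) were chosen after their values were seen. A gene that these rules name is not reported here. Alternatives were other scalings, filters, tools, units of replication, blocks and each line or culture left out.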

Additional observations from a re-analysis of the deposited data

Results flagged for a closer look

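Among 102 combinations of a named gene and a genotype, 4 had a culture far from the other 8 by Dixon's criterion. For independent values chance alone flags about 1 in 20. The cultures of a genotype share 3 lines, so that rate does not apply as it stands. *Ptgds* had 0.719 CPM (18 counts) in culture 2 of *p53*-deleted line 3, where the other 8 cultures of the genotype were at 0 to 0.311 CPM. *Alox5* had 0.181 CPM in culture 1 of *Cdkn2a*-deleted line 3, a level of very few counts. *Tpr* had 410.9 CPM in culture 1 of *Cdkn2a*-deleted line 1, and *Lta4h* had 91.2 CPM in culture 3 of *p53*-deleted line 1.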

How the results depend on the processing

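Of 135 values of the 8 members in the fit under 17 alternatives, 0 changed sign, and 2 moved by at least the SD between lines, *Ptgs1* to 3.20 without *p53*-deleted line 1 and *Ptgis* to -1.79 without *p53*-deleted line 2. The members were chosen with this contrast known and the fits reuse the same counts, so the unchanged signs are no independent support for it. The 274 genes called between the genotypes became 423 with scaling by the raw total, 2171 with DESeq2 on the 6 lines, 2173 with limma-voom and the line as a random effect, 6096 with edgeR on the 18 cultures, 6409 with DESeq2 on the 18 cultures and 0 to 172 with 1 line left out, the 0 being without *Cdkn2a*-deleted line 1. For the 3 genes called in the other pathway lists the corresponding counts were 19 with DESeq2 on the lines, 26 with limma-voom, 51 with edgeR on the cultures, 54 with DESeq2 on the cultures and 0 to 3 with 1 line left out. Treating cultures as replicates takes the cultures of a line as independent samples, although they come from the same tumor. Leaving out a line leaves fewer samples. The count of 274 was 282 with DESeq2's size factors, 320 with upper-quartile scaling, 411 with no filter and 226 where each line needed 10 counts or more.

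The line numbers do not pair lines of the 2 genotypes (correlation of deviations -0.13 to -0.085). A block for the line number gave 0 genes and 0 list genes, and a block for the culture number, over 18 cultures, gave 5681 genes and 49 list genes. Among the lines of a genotype the block for the culture number gave 11270 and 6869 genes and 7 members in each, and there no alternative moved a count by over 1.5 times. With 1 culture of each line left out, 10275 to 10803 genes were called among the *p53*-deleted lines and 5245 to 6397 among the *Cdkn2a*-deleted lines.

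Of the tests of 41 named genes beyond the members, 519 stayed on the same side of the threshold, 41 lost a call, 105 gained one and 8 changed sign, none of these 8 being called in either fit. The 8 were *Mgll* (0.26 without *p53*-deleted line 2, with -5.95 at the other end of the leave-one-out range), *Cdkn2a* (0.81 at the other end, -0.18 without *p53*-deleted line 3 and -0.0033 without *Cdkn2a*-deleted line 2), *Cd14* (0.51 at the other end, -0.054 without *p53*-deleted line 2 and -0.26 without *Cdkn2a*-deleted line 2) and *Krt8* (4.22 at the other end, -0.40 without *p53*-deleted line 1, -0.45 without *p53*-deleted line 3 and -4.98 without *Cdkn2a*-deleted line 1), and the cause was not tested. Depth limits *Ptgds* and *Hpgd*, at most 18 counts in a culture.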

Other observations

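*p53*-deleted line 3 had low medians on other chromosomes as well as on chromosome 1. Its median over 519 tested genes on chromosome 12 was -0.50 and over 467 on chromosome 16 was -0.48, on the log2 scale against the median of the 6 lines. In *Cdkn2a*-deleted line 3 the median of chromosome 10 was 0.34, and on chromosome 15, where *Ptger4* lies, *Cdkn2a*-deleted lines 2 and 3 were at -0.26 and -0.19 and the *p53*-deleted lines at 0.12, 0.067 and 0.23. These chromosomes were singled out after their values were seen, and no DNA measurement was used.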
